A study of Homo sapiens with 24 samples.

Results

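The NIK, IKK, TRAF and cIAP genes encode the relay that stands between the TNF receptor family and the NF-κB dimers. Their mRNA levels were followed here after siRNA knockdown of subunits of those dimers in Hodgkin lymphoma cells. The members were 10 genes: MAP3K14, which encodes the kinase NIK; CHUK and IKBKB, which encode the kinases IKKα and IKKβ; TRAF1, TRAF2, TRAF3, TRAF5 and TRAF6, which encode receptor adaptors; and BIRC2 and BIRC3, which encode the ubiquitin ligases cIAP1 and cIAP2. A member was measured by each transcript cluster (the probes that stand for one locus on the array) to which the platform annotation gave that gene as its only symbol, and of 19460 such clusters 8 were members, 1 for each gene except TRAF2 and BIRC3. TRAF2 and BIRC3 were not analysed here, because no cluster was listed under either symbol alone. The cluster identifiers are 8016194 for MAP3K14, 7935707 for CHUK, 8146171 for IKBKB, 8163825 for TRAF1, 7977018 for TRAF3, 7909545 for TRAF5, 7947540 for TRAF6 and 7943424 for BIRC2. The members were chosen by name and not by a cut-off on their values, but with earlier results of these data known.

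The cells were L1236, an established Hodgkin lymphoma line of B cell origin and thus a single model of the disease, and total RNA was read on 24 Affymetrix Human Gene 1.0 ST arrays. In experiment 2 the p52/RelB KD cells (KD, knockdown) received siRNA against NFKB2 at 500 nM for 2 days and against RELB at 1 µM for 3 days, and control 2 cells received non-targeting siRNA. In experiment 1 the p50/RelA KD cells received siRNA against NFKB1 at 1 µM for 3 days and against RELA at 500 nM for 2 days, and control 1 cells received non-targeting siRNA. The cells took up the siRNA passively in low serum and were harvested 1 day after normal serum was restored. Each arm held 6 arrays, from 2 siRNA sequences in each of 3 biological replicates. Both sequences of a replicate count as separate arrays, so the p-values measure the spread between arrays. The targeting sequences are printed because they define each knockdown, with 2 for each mRNA; the sources used here do not say which of them is sequence 1 on the arrays.
NFKB2 siRNA: ucauugagcagauagucua
NFKB2 siRNA: cugucaagaucuguaacua
RELB siRNA: guaggauucggaaaagauu
RELB siRNA: uggagaucaucgacgagua
NFKB1 siRNA: ccaaaguauaaagauauua
NFKB1 siRNA: ggcucauguuuacagcuuu
RELA siRNA: cuuccaaguuccuauagaa
RELA siRNA: ggauugaggagaaacguaa

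NIK is held at a low level in resting cells because a complex of TRAF3, TRAF2 and the cIAPs marks it for degradation. When a receptor such as CD40 binds these adaptors, the complex is broken up, NIK accumulates and activates IKKα, and p100 is processed to p52, which pairs with RelB. In the canonical pathway IKKβ marks the IκB inhibitors for degradation and frees p50-RelA, and the cIAPs and TRAF6 contribute ubiquitin chains on which the IKK complex is activated. TRAF1 has no RING domain of its own and joins the other adaptors, and BIRC3 and TRAF1 are textbook NF-κB target genes. Genetic lesions of TRAF3 and of the cIAP locus are known in several B cell malignancies.

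The siRNAs lowered their targets: NFKB2 stood at 39.4% and RELB at 82.0% of control 2 in the p52/RelB KD, and NFKB1 at 26.5% and RELA at 38.1% of control 1 in the p50/RelA KD. RELB was thus the least reduced of the 4 on these arrays. Subunits that were not targeted were also called: REL fell to 67.5% of control 2 (limma adjusted p = 0.000308) and NFKB1 rose to 111% (adjusted p = 0.0374) in the p52/RelB KD. NFKB2 fell to 87.8% of control 1 in the p50/RelA KD (adjusted p = 0.0457). All 6 Hodgkin markers (TNFRSF8, CCL17, CCL22, EBI3, IRF4 and FSCN1) lay at or above 6, the limit used for low values, on all arrays, as did CD79A, CD79B and BLK, 3 of the 4 B lineage markers listed, while MS4A1 (CD20) of those 4 and LYZ of the 5 myeloid ones lay below it on all arrays. CD3D and CD3E lay below 6 on all arrays of experiment 1 and at or above it on all arrays of experiment 2, where the array medians were higher (7.39 to 7.51, against 6.94 to 6.99). Of 5 T and NK markers 5 lay at or above 6 on all arrays of experiment 2 and 3 in experiment 1, and of the 5 myeloid ones 4 and 2. A value above 6 is not a detection call, and no B lineage, T and NK or myeloid marker was called in either knockdown. Of the Hodgkin markers, CCL22 and EBI3 were called in both knockdowns and CCL17 in the p50/RelA KD. The medians differ between the experiments, so levels were compared only within an experiment. One array, p52/RelB KD replicate 3 with sequence 2, stood apart from the other arrays of its arm (mean correlation 0.986, where the highest in that arm was 0.994), and control 1 replicate 2 with sequence 2 was the least like its arm in experiment 1 (0.993). Both are called arrays that stood apart below, although the control 1 array differed less from its arm, where the highest mean correlation was 0.996. Members that were called are also given without the array of their own experiment that stood apart. Without control 1 replicate 2 sequence 2, NFKB2 was no longer called in the p50/RelA KD (adjusted p = 0.0623).

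All values are log2 values. Each difference subtracts control from KD and carries the SE (standard error) of a limma fit that blocks on the replicate. A gene was called where the p adjusted by Benjamini-Hochberg over all clusters tested was below 0.05 and the difference was at least 10%. Of the 8 members measured, all passed the filter on low values in both experiments and none had an array below 6. In bulk RNA a change in each cell and a change in the share of cells cannot be told apart.

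**Figure D1:**
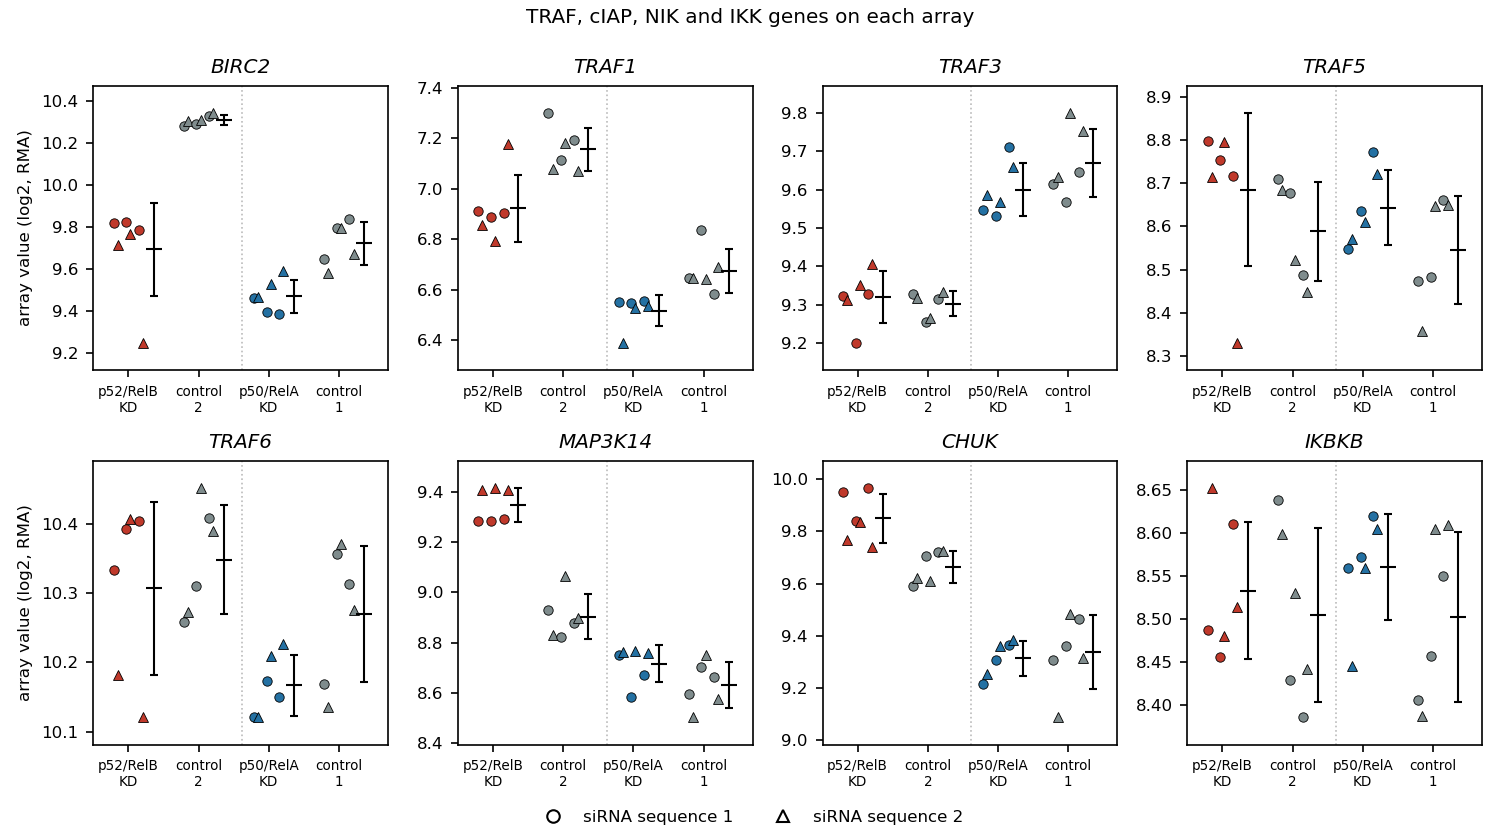
Values of the 8 members on each array (y axis, log2 RMA value, a separate scale for each gene), with p52/RelB KD left of control 2 and p50/RelA KD left of control 1; circles are siRNA sequence 1, triangles sequence 2, replicates run 1 to 3 from left to right in each arm, and the black bar is the mean with its SD over 6 arrays. The KD and control arrays of experiment 2 are apart for BIRC2, MAP3K14 and CHUK, and those of experiment 1 for TRAF1.

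BIRC2, which encodes cIAP1, was the only member called lower in both knockdowns. It stood at 65.2% of control in the p52/RelB KD and at 84.0% in the p50/RelA KD. MAP3K14 and CHUK, which encode NIK and IKKα, rose in the p52/RelB KD, to 136% and 114% of control. Neither was called in the p50/RelA KD. TRAF1 fell to 85.1% of control in the p52/RelB KD and stood at 89.7% in the p50/RelA KD, where it was not called. The difference between these TRAF1 effects was not called (-0.08 ± 0.08, limma adjusted p = 0.703). The BIRC2 call in the p50/RelA KD was close to the threshold. IKBKB, TRAF3, TRAF5 and TRAF6 were called in neither knockdown.

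In the p52/RelB KD 2 members were called lower, against 5.75% of all 16101 clusters tested, and 2 higher, against 3.93%, so that 4 of 8 were called where 9.68% of all clusters were. In the p50/RelA KD 1 of 8 was called lower and none higher. The share of all 14672 clusters called there was 0.825% lower and 0.245% higher, 1.07% in all. At an unadjusted p below 0.05 the members numbered 4 in each knockdown, against 22.8% of all clusters in the p52/RelB KD and 10.5% in the p50/RelA KD. The median difference of the 8 members was 0.02 in the p52/RelB KD, where that of all clusters tested was 0.02, and -0.05 in the p50/RelA KD, where it was 0.00124 over all clusters.

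**Figure D2:**
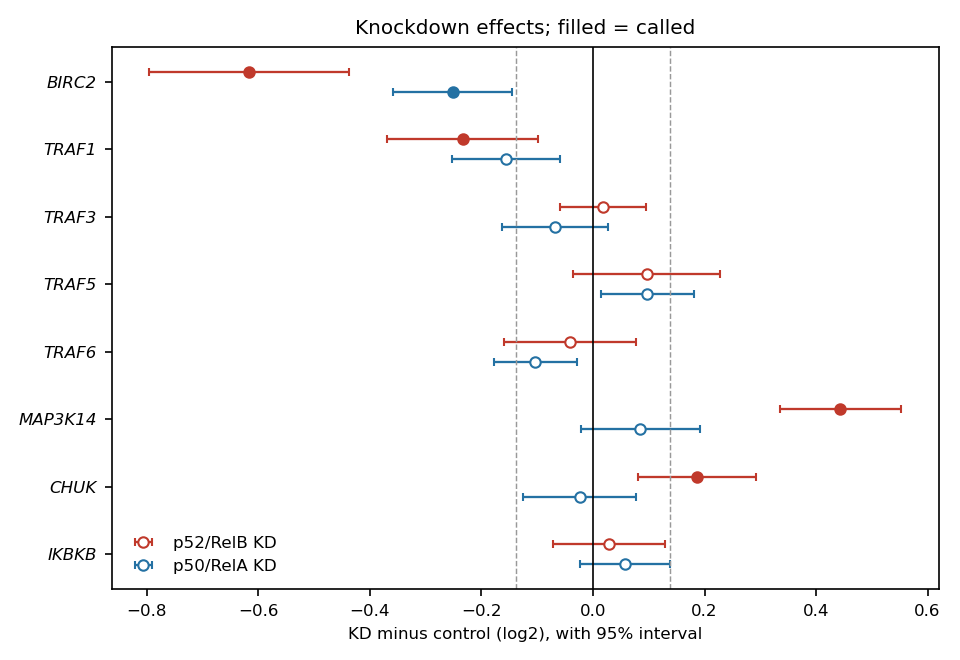
KD minus control (x axis, log2) for each member, with its 95% interval from the limma fit, in the p52/RelB KD (red, upper point) and the p50/RelA KD (blue, lower point); filled points were called and dashed lines mark a difference of 10%. BIRC2 lies left of 0 in both knockdowns, and MAP3K14 and CHUK lie right of 0 in the p52/RelB KD.

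For cIAP1, the 6 p52/RelB KD arrays read 9.82 and 9.71 in replicate 1, 9.83 and 9.77 in replicate 2, and 9.79 and 9.25 in replicate 3 (sequence 1, then sequence 2) for BIRC2. The 6 arrays of control 2 lay between 10.28 and 10.34. The arms did not overlap, and the lowest KD array was the one that stood apart. BIRC2 averaged 9.69 ± 0.22 in p52/RelB KD cells and 10.31 ± 0.02 in control 2 cells (SD, n = 6 each), a difference of -0.62 ± 0.08 (SE; limma adjusted p = 0.000547). The 3 replicates gave -0.53, -0.50 and -0.82. Without the array that stood apart the difference was -0.52, with a limma adjusted p of 3.79e-07. Replicates 1 and 2, which were scanned together, gave -0.52 without replicate 3.

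BIRC2 read 9.46, 9.47, 9.39, 9.53, 9.39 and 9.59 on the p50/RelA KD arrays, in the same order of replicate and sequence. The arrays of control 1 read 9.65, 9.58, 9.79, 9.80, 9.84 and 9.67. All but the highest KD array lay below the lowest control array, so the arms overlapped by that 1 array. The means were 9.47 ± 0.08 in p50/RelA KD cells and 9.72 ± 0.10 in control 1 cells (SD, n = 6 each), a difference of -0.25 ± 0.05 (limma adjusted p = 0.0283). All 3 replicates were lower (-0.15, -0.33 and -0.27), and each was a scan batch of its own. This call was close to the threshold: it was lost without any 1 of 8 of the 12 arrays (adjusted p 0.0540 to 0.0819), with both sequences averaged the adjusted p was 0.117, and without replicates 1, 2 or 3 it was 0.173, 0.268 and 0.123. Without control 1 replicate 2 sequence 2 the difference was -0.24 and the adjusted p 0.0469.

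MAP3K14 read 9.28 on both sequence 1 arrays of replicates 1 and 2 of the p52/RelB KD and 9.29 in replicate 3, and 9.41 on all 3 sequence 2 arrays. Control 2 arrays lay between 8.82 and 9.07. Every KD array was above every control array, and the KD arrays fell into a lower set with sequence 1 and a higher set with sequence 2. NIK mRNA averaged 9.35 ± 0.07 in p52/RelB KD cells and 8.90 ± 0.09 in control 2 cells (SD, n = 6 each). The difference for MAP3K14 was 0.44 ± 0.05 (limma adjusted p = 0.000172), and the replicates gave 0.46, 0.41 and 0.46. Without the array that stood apart it was 0.43.

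MAP3K14 lay in the p50/RelA KD between 8.58 and 8.77, against 8.50 to 8.75 in control 1. The arms overlapped, with 4 of 6 KD arrays above the highest control. The difference was 0.09 ± 0.05 (95% interval -0.02 to 0.19, limma adjusted p = 0.617), positive in replicates 1 and 3 (0.21 and 0.10) and negative in replicate 2 (-0.05).

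For IKKα, the partner of NIK, the p52/RelB KD arrays of CHUK read 9.95 and 9.77, 9.84 and 9.83, and 9.97 and 9.74 in replicates 1, 2 and 3. Control 2 arrays lay between 9.59 and 9.73. The arms did not overlap, but the lowest KD array and the highest control array, both of replicate 3 and sequence 2, were nearly level. CHUK averaged 9.85 ± 0.09 in p52/RelB KD cells and 9.66 ± 0.06 in control 2 cells (SD, n = 6 each), a difference of 0.19 ± 0.05 (limma adjusted p = 0.0295). The adjusted p was 0.110 with both sequences averaged, 0.268 without replicate 1 and 0.222 without replicate 2, and 0.00115 without the array that stood apart. Left out singly, 9 of the 12 arrays ended the call (0.0540 to 0.0735). CHUK lay in the p50/RelA KD between 9.21 and 9.38, against 9.09 to 9.48 in control 1, and the KD range sat inside that of the controls. The difference was -0.02 ± 0.05 (95% interval -0.12 to 0.08).

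IKBKB, which encodes IKKβ, lay between 8.46 and 8.65 on p52/RelB KD arrays, against 8.39 to 8.64 in control 2. It lay between 8.45 and 8.62 on p50/RelA KD arrays, against 8.39 to 8.61 in control 1. The arms overlapped over most of their range in both experiments. The differences were 0.03 ± 0.05 in the p52/RelB KD (95% interval -0.07 to 0.13) and 0.06 ± 0.04 in the p50/RelA KD (-0.02 to 0.14).

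Among the adaptors, TRAF1 read 6.91 and 6.86, 6.89 and 6.79, and 6.91 and 7.18 on the p52/RelB KD arrays of replicates 1, 2 and 3. Control 2 arrays lay between 7.07 and 7.30. Of the 6 KD arrays 5 lay below all controls, and the exception was the array that stood apart. TRAF1 averaged 6.92 ± 0.13 in p52/RelB KD cells and 7.16 ± 0.09 in control 2 cells (SD, n = 6 each), a difference of -0.23 ± 0.06 (limma adjusted p = 0.0326). Without the array that stood apart the difference was -0.29 and the adjusted p 0.000659, whereas the adjusted p was 0.100 with both sequences averaged, 0.277 without replicate 1 and 0.310 without replicate 2. Leaving out 1 array ended the call for 9 of the 12 arrays (0.0614 to 0.0865). The replicates gave -0.30, -0.31 and -0.09.

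TRAF1 read 6.55, 6.39, 6.55, 6.53, 6.56 and 6.54 on the p50/RelA KD arrays, against 6.58 to 6.84 in control 1. Every TRAF1 value lay below the lowest array median of its experiment (6.94 in experiment 1 and 7.39 in experiment 2), not far above the limit of 6. The arms did not overlap. The difference was -0.16 ± 0.04, lower in 3 of 3 replicates (-0.18, -0.20 and -0.09), but the limma adjusted p was 0.143 and TRAF1 was not called. It was the only member of the 8 whose arms did not overlap in experiment 1, where 1.11% of all clusters tested did not. In experiment 2 the arms of 3 members did not overlap (BIRC2, MAP3K14 and CHUK), against 5.27% of all clusters.

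TRAF3, which ties NIK to the cIAPs, lay between 9.20 and 9.41 on p52/RelB KD arrays, against 9.26 to 9.33 in control 2, and between 9.53 and 9.71 on p50/RelA KD arrays, against 9.57 to 9.80 in control 1. The KD and control arrays were mixed in both experiments. The p52/RelB KD difference was 0.02 ± 0.04 (95% interval -0.06 to 0.09) and the p50/RelA KD difference -0.07 ± 0.04 (-0.16 to 0.03), or -0.03 without control 1 replicate 2 sequence 2.

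TRAF5, an adaptor of lymphoid TNF receptors, lay between 8.71 and 8.80 on 5 of the p52/RelB KD arrays and at 8.33 on the array that stood apart, against 8.45 to 8.71 in control 2. The difference was 0.10 ± 0.06 with all arrays (limma adjusted p = 0.381), and 0.15 without that array, where TRAF5 passed the test with an adjusted p of 0.0195. In the p50/RelA KD it lay between 8.55 and 8.77, against 8.36 to 8.66 in control 1, a difference of 0.10 ± 0.04 (adjusted p = 0.362). The single array thus decided whether TRAF5 was called in experiment 2.

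TRAF6, the adaptor of the Toll-like and IL-1 receptors, lay between 10.12 and 10.41 on p52/RelB KD arrays, against 10.26 to 10.45 in control 2, and between 10.12 and 10.23 on p50/RelA KD arrays, against 10.14 to 10.37 in control 1. The arms overlapped in both. The differences were -0.04 ± 0.05 in the p52/RelB KD (95% interval -0.16 to 0.08) and -0.10 ± 0.03 in the p50/RelA KD (-0.18 to -0.03, limma adjusted p = 0.244).

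Whether the knockdowns differed in their effects was tested in 1 limma fit over all 24 arrays, as the p52/RelB KD effect minus the p50/RelA KD effect. Each knockdown was run only in its own experiment, so a difference between knockdowns cannot be told apart from one between experiments. Of the 8 members 2 differed, against 4.35% of the 14647 clusters tested in both experiments. The effect on MAP3K14 was higher in the p52/RelB KD by 0.36 ± 0.07 (adjusted p = 0.00478), and that on BIRC2 was lower, at -0.37 ± 0.10 (adjusted p = 0.0380). The call for BIRC2 was lost in 4 of 7 alternatives, with an adjusted p of 0.306 without replicate 1 of both experiments, 0.118 without replicate 2, 0.0602 without the replicate block and 0.0549 with no filter, and it was 0.00658 without both arrays that stood apart. Without replicate 3 of both experiments the adjusted p for MAP3K14 was 0.0664. For CHUK the difference of effects was 0.21 ± 0.07 (adjusted p = 0.0844), and it passed the test without both arrays that stood apart (0.22, adjusted p = 0.0274). TRAF1, whose effects pointed the same way in both knockdowns, gave -0.08 ± 0.08 (95% interval -0.24 to 0.08), and the adjusted p of the remaining 4 members was 0.473 or more.

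**Figure D3:**
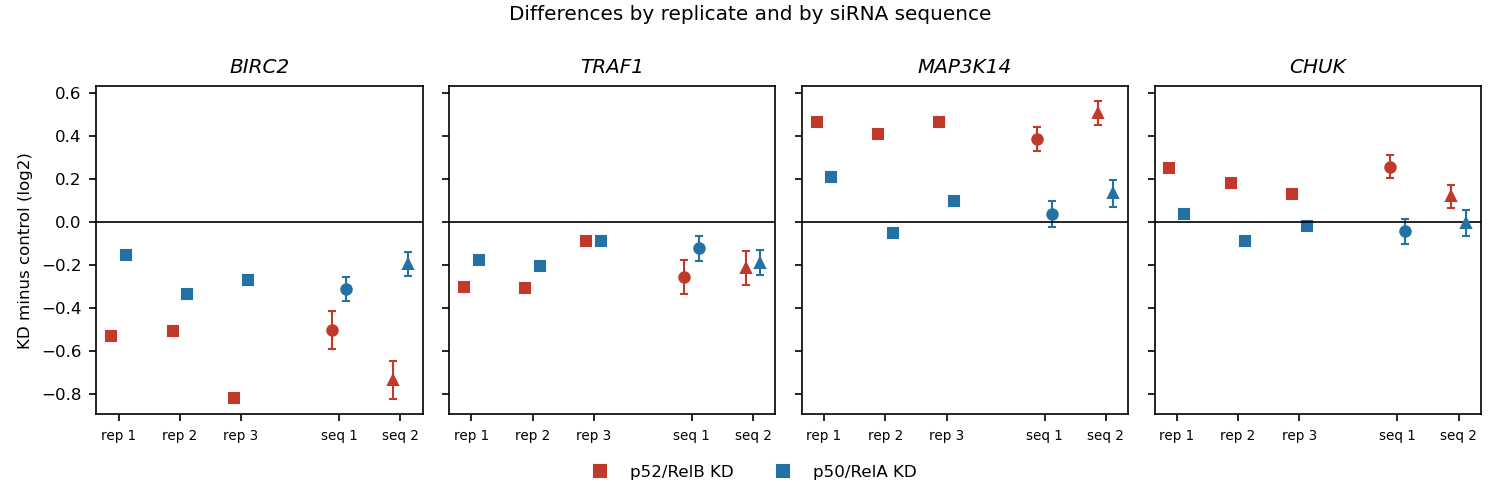
KD minus control (y axis, log2) for the members called in either knockdown: squares are the difference within each replicate (mean of 2 KD arrays minus mean of 2 control arrays), circles and triangles the arrays of siRNA sequence 1 and 2 against all controls, with the SE as bar. BIRC2 is below 0 at every point of both knockdowns, TRAF1 likewise, and MAP3K14 is above 0 at every point of the p52/RelB KD.

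Each knockdown was made with 2 siRNA sequences per target, which allows an effect to be read from independent reagents. In the p52/RelB KD the BIRC2 effect was -0.50 ± 0.09 with sequence 1 and -0.73 ± 0.09 with sequence 2, or -0.56 ± 0.04 with sequence 2 without the array that stood apart. The MAP3K14 effect was 0.38 ± 0.06 and 0.51 ± 0.06 with sequence 1 and sequence 2. For CHUK the sequences gave 0.26 ± 0.05 and 0.12 ± 0.05, and for TRAF1 -0.25 ± 0.08 and -0.21 ± 0.08; without that array sequence 2 gave 0.17 ± 0.05 for CHUK and -0.34 ± 0.05 for TRAF1. In the p50/RelA KD BIRC2 gave -0.31 ± 0.06 with sequence 1 and -0.19 ± 0.06 with sequence 2, and neither passed the test alone when only its own 3 KD arrays were used (adjusted p = 0.141 and 0.357).

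No member was called between the KD sequences (sequence 2 minus sequence 1) by limma in either experiment, and 0% of all clusters were. In the p52/RelB KD 2 members had an unadjusted p below 0.05, BIRC2 at -0.23 ± 0.10 and CHUK at -0.14 ± 0.06, both with an adjusted p of 0.506, and 9.54% of all clusters did. The replicates gave -0.11, -0.06 and -0.54 for BIRC2, the last with the array that stood apart, and without that array the difference between sequences was -0.06 ± 0.04 (unadjusted p = 0.181) for BIRC2 and -0.09 ± 0.06 (0.134) for CHUK. MAP3K14 gave 0.12 ± 0.06 with all arrays and 0.12 ± 0.07 without it. None of the 8 had an unadjusted p below 0.05 in the p50/RelA KD, and the largest difference between sequences was 0.12, for BIRC2.

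The annotated promoters of the members were set beside these values, because κB sites are the DNA elements that NF-κB dimers bind. The standard κB consensus was searched on both strands in the window from 250 bases before to 50 bases after each annotated start (RefSeq, GRCh38.p14), of which there were 14 for 9 members. It was found in 5.91% of all 35116 such windows. Among the members it was in 1 window each of BIRC3 (2 matches, starting 199 and 135 bases before the start, at chr11:102317285-102317294 and chr11:102317349-102317358) and TRAF3 (1 match, starting 33 bases before it, at chr14:102777416-102777425). TRAF3 was called in neither knockdown. None of the windows of BIRC2, TRAF1, MAP3K14 and CHUK held a match, which says only that these letters were not in these windows. The 150 bases before the outermost annotated start are printed for the 3 members with the largest called changes and for TRAF3, whose match is in capitals. They lie at chr11:102347064-102347213 (plus strand) for BIRC2, chr17:45317021-45317170 (minus strand) for MAP3K14, chr9:120929172-120929321 (minus strand) for TRAF1 and chr14:102777299-102777448 (plus strand) for TRAF3, upstream of the transcribed part.
BIRC2: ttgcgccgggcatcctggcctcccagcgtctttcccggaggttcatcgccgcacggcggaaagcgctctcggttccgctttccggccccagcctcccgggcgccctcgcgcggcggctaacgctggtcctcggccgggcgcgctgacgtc
MAP3K14: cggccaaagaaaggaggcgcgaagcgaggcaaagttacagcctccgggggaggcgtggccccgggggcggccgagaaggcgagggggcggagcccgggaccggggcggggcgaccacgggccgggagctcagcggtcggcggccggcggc
TRAF1: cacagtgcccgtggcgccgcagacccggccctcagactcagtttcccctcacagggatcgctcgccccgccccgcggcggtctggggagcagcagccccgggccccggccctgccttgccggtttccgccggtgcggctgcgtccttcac
TRAF3: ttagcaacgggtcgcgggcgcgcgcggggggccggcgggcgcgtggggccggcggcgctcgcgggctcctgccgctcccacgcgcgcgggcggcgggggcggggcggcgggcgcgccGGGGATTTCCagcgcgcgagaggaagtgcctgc

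Around the members, 56 other genes of the same pathway had 58 clusters: receptors that bind TRAFs, further TRAF and IAP family genes, ubiquitin enzymes, partners of the IKKs and the adaptors of the CBM and MyD88 complexes. In the p52/RelB KD 6 of the 57 clusters tested were lower and 5 higher, where 5.75% and 3.93% of all clusters were, and the arms of 10 did not overlap, against 5.27% of all clusters. Of the 56 tested in the p50/RelA KD 3 were lower and none higher, where 0.825% and 0.245% of all clusters were, with 15 at an unadjusted p below 0.05, against 10.5%. The median differences were 0.00480 in the p52/RelB KD and -0.02 in the p50/RelA KD. All of these calls remained without the array of each experiment that stood apart, and each called difference stayed within 1.5 times its value. Without it TNFRSF8 (CD30) was also called lower in the p52/RelB KD (-0.15 ± 0.03, limma adjusted p = 0.00860, against 0.152 with all arrays), and MAP3K3, a kinase upstream of the IKKs, higher in the p50/RelA KD (0.18 ± 0.04, 0.0329 against 0.599). The lists were drawn up with earlier results of these data known.

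Among 14 receptors, CD40, which recruits TRAF2 and TRAF3 and signals to NIK, fell in both knockdowns (-0.29 ± 0.04 in the p52/RelB KD and -0.19 ± 0.04 in the p50/RelA KD, limma adjusted p = 0.000808 and 0.0275). TNFRSF17 (BCMA, a receptor of plasma cells) fell in the p52/RelB KD (-0.53 ± 0.10), and CD27, a receptor of memory B cells, rose by 0.42 ± 0.05. TNFRSF9 (4-1BB, which binds TRAF1 and TRAF2) fell in the p50/RelA KD (-0.56 ± 0.04) and gave -0.11 ± 0.05 in the p52/RelB KD (adjusted p = 0.153). The p52/RelB KD effect minus the p50/RelA KD effect was 0.45 ± 0.06 for TNFRSF9, 0.38 ± 0.07 for CD27 and -0.61 ± 0.15 for TNFRSF17, each called. It was also called for TNFRSF11A (RANK) at 0.21 ± 0.04, although that gene passed the test in neither knockdown alone. The other 11 receptors of the p52/RelB KD lay between -0.11 and 0.11.

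Of 13 clusters of ubiquitin enzymes and their partners 3 fell and 2 rose in the p52/RelB KD, where 5.75% and 3.93% of all clusters did. TNFAIP3 (A20, which trims ubiquitin chains and restrains IKK activation) fell by 0.35 ± 0.07 there and fell by 0.45 ± 0.04 in the p50/RelA KD, the only call of this list in that knockdown. TNIP1, which binds A20, fell in the p52/RelB KD (-0.31 ± 0.03), as did PELI1, a ubiquitin ligase of Toll-like and IL-1 receptor signalling (-0.59 ± 0.11, and -0.48 ± 0.05 without the array that stood apart). OTULIN, which cleaves linear ubiquitin chains, rose by 0.24 ± 0.06, and UBE2N (Ubc13, the conjugating enzyme that works with TRAF6) by 0.15 ± 0.04. UBE2N gave 0.13 ± 0.06 in the p50/RelA KD (limma adjusted p = 0.403), and its difference of effects was not called (0.01 ± 0.07). The effects of the knockdowns differed for TNIP1 (-0.21 ± 0.05), PELI1 (-0.47 ± 0.12) and OTULIN (0.29 ± 0.08).

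Among the other TRAF and IAP family genes and adaptors, TIFA, an adaptor that joins TRAF6, fell by 0.46 ± 0.09 in the p52/RelB KD (-0.37 ± 0.05 without the array that stood apart), and BIRC5 (survivin, a mitotic IAP) rose by 0.16 ± 0.03. The effects on TIFA differed by -0.39 ± 0.10. No gene of this list was called in the p50/RelA KD by limma, where TRAF3IP3 differed most at 0.19 ± 0.06 (adjusted p = 0.239). There 2 of 10 clusters had an unadjusted p below 0.05, against 10.5% of all clusters. Of 15 IKK partners and upstream kinases MAP3K5 (ASK1, a stress kinase bound by TRAF2) rose in the p52/RelB KD by 0.22 ± 0.04. None of the 15 was called in the p50/RelA KD, with 5 at an unadjusted p below 0.05, against 10.5% of all clusters. MAP3K5 was largest there at 0.12 ± 0.05 (adjusted p = 0.358). IKBKG, which encodes the scaffold NEMO of the IKK complex, gave 0.09 ± 0.05 in the p52/RelB KD and 0.12 ± 0.05 in the p50/RelA KD, with adjusted p of 0.284 and 0.346. The 4 adaptors of the CBM and MyD88 complexes measured had no call. An unadjusted p below 0.05 was met by 2 in the p52/RelB KD and 0 in the p50/RelA KD, against 22.8% and 10.5% of all clusters. The largest differences were -0.18 ± 0.05 for MALT1 in the p52/RelB KD (adjusted p = 0.0607) and -0.07 ± 0.03 for MYD88 in the p50/RelA KD.

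**Figure D4:**
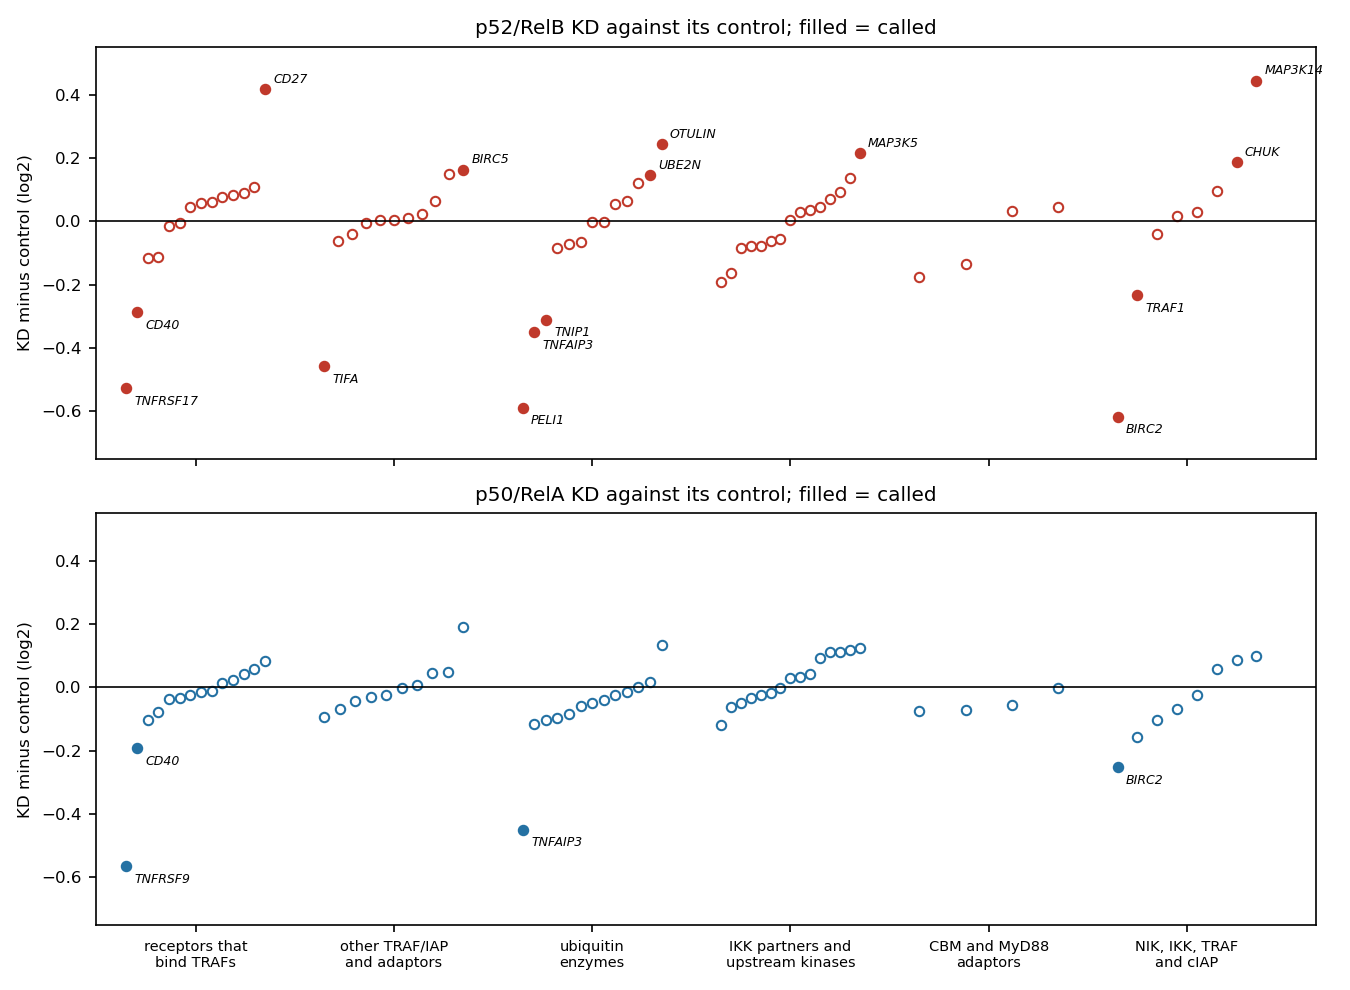
KD minus control (y axis, log2) of each tested cluster of the 5 pathway lists and of the 8 members, sorted within each list, for the p52/RelB KD (top) and the p50/RelA KD (bottom); filled points were called and are named. CD40 and TNFAIP3 are called lower in both panels, and MAP3K14 and CD27 are the highest points of the upper one.

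The genes whose values followed those of a called member most closely were found by the Pearson correlation over the 12 arrays of each experiment, after the mean of each replicate was subtracted, and averaged over both experiments. All points share the same arrays and contain the knockdown itself, so these are descriptions. BIRC2 was followed most closely by BCL2L1 (mean r 0.964), which encodes the survival protein BCL-XL, then by BAZ1A (0.963), a chromatin remodelling subunit, and MREG (0.961). For TRAF1 the closest were SLC75A1 (0.879), TAPBP (0.852), which encodes tapasin of the MHC class I loading complex, and TNFAIP2 (0.847). MAP3K14 was followed by SLC9A9 (0.899), RAD23B (0.884) and ANKRD52 (0.878), and CHUK by WDR77 (0.906), ASCC3 (0.887) and ENDOD1 (0.879).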

How the data were processed

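RNA of L1236 cells was measured on 24 arrays (12 per experiment). The authors deposited log2 values made with RMA, which corrects background, quantile-normalizes and summarizes the probes of each cluster (version not stated in the sources used here). RMA compresses differences and has no detection call, and precision is limited by the number of arrays. The methods adjust for covariates that they do not name. Platform annotation gave 1 symbol to 19460 of 33297 clusters, 1754 had several and 12083 none; symbols were updated through the RefSeq table of GRCh38.p14. A gene of a cluster with several symbols was not analysed here.

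Of the clusters with 1 symbol, those below 6 on at least 50% of an experiment's arrays were dropped, which left 14672 (experiment 1) and 16101 (experiment 2). KD was compared with control by limma 3.58.1 (lmFit, eBayes) in R 4.3.3, blocking on the replicate, with Benjamini-Hochberg adjustment over all clusters tested. The replicate numbers were taken to pair the samples. Deviations of KD and control arrays of the same number had a correlation of 0.448, 0.195 and 0.251 for the replicates of experiment 1, and of 0.574, 0.268 and 0.377 for those of experiment 2. The same correlation was not computed between arrays of different replicate numbers, so these values do not establish the pairing. In experiment 1 each replicate was scanned on its own date. In experiment 2 replicates 1 and 2 were scanned together and replicate 3 apart, so each scan date held both arms. The fits were tested on simulated data with independent noise on each array, which cannot show how alike the sequences of a replicate are. Alternatives were the block, the methods' t-test, filters, a further quantile normalization, and leaving out replicates, arrays or a sequence. Named were all members, every called gene of the pathway lists, the largest difference of a list without a call, the siRNA targets, and the 3 genes most like each called member; IKBKG, TNFRSF11A, TNFRSF8, MAP3K3 and REL were named after their values were seen. Members and lists were chosen with earlier results of these data known.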

Additional observations from a re-analysis of the deposited data

Results flagged for a closer look

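In 5 of 32 groups (8 members, 4 arms of 6 arrays) the highest or lowest array was far from the others by Dixon's criterion, which chance alone meets in about 1 of 20 groups. Of these 5, 3 were the same array, p52/RelB KD replicate 3 with sequence 2, which read 9.25 for BIRC2 (the others 9.71 to 9.83), 7.18 for TRAF1 (6.79 to 6.91) and 8.33 for TRAF5 (8.71 to 8.80). The other 2 were on p50/RelA KD replicate 1 with sequence 2, which read 8.45 for IKBKB (8.56 to 8.62) and 6.39 for TRAF1 (6.53 to 6.56). The first of these arrays also had the lowest mean correlation with its arm (0.986), and without it the p52/RelB KD difference was -0.52 for BIRC2, -0.29 for TRAF1 (limma adjusted p = 0.000659) and 0.15 for TRAF5 (0.0195).

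The knockdowns differed in their effect on MAP3K14 by 0.359 (p52/RelB KD effect minus p50/RelA KD effect, log2, limma adjusted p = 0.00478) and on BIRC2 by -0.365 (adjusted p = 0.038). The call for BIRC2 was lost in 4 of 7 alternatives, with an adjusted p of up to 0.306. Differences between the knockdowns cannot be told apart from differences between the experiments.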

How the results depend on the processing

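The p52/RelB KD effects on BIRC2 (-0.73 to -0.50) and MAP3K14 (0.38 to 0.51) kept direction and call in all 27 alternatives. BIRC2 in the p50/RelA KD kept its direction in all 27 and lost its call in 16, CHUK in the p52/RelB KD lost it in 13 and TRAF1 in 14; TRAF5 gained one in 2. The members called in the p50/RelA KD numbered 0 with the methods' t-test on deposited values, with no filter, with either KD sequence alone and with sequences averaged, and 0 to 1 when a replicate or array was left out. In the p52/RelB KD they numbered 2 with sequence 2 alone and with sequences averaged, and 2 to 5 with a replicate or array left out. The members whose effects differed numbered 1 without the replicate block and with no filter, and 1 to 3 with replicates or arrays left out; with a further quantile normalization CHUK also passed (0.21, adjusted p = 0.0196). No member differed between sequences under any alternative run for that comparison.

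All clusters called, 157 in the p50/RelA KD and 1559 in the p52/RelB KD, numbered 59 and 880 without the replicate block, which changed no member's call within either knockdown. They were 30 and 725 with the methods' t-test on deposited values, 25 in the p50/RelA KD with sequence 1 alone, 11 and 865 with sequence 2 alone, and 44 and 631 with sequences averaged. In the p50/RelA KD they were 276 with that t-test on values centred by replicate and 103 with no filter. With a replicate or array left out they ranged from 18 to 193 and from 443 to 2309. Testing clusters with several symbols too, an alternative chosen after seeing the data like those without the arrays that stood apart, gave 182 and 1764.

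Some small differences that were not called changed sign. With sequence 1 alone the p52/RelB KD difference was -0.0184 for TRAF3 and 0.0289 for TRAF6, and without both arrays that stood apart the difference of effects was 0.0262 for TRAF5. With a replicate or array left out, CHUK ranged from -0.0588 to 0.00905 in the p50/RelA KD, IKBKB from -0.0305 to 0.0677, TRAF3 from -0.000801 to 0.0367 and TRAF6 from -0.0718 to 0.00581 in the p52/RelB KD, and the difference of effects from -0.101 to 0.0338 for IKBKB, -0.0607 to 0.0408 for TRAF5 and -0.00317 to 0.107 for TRAF6. RMA values carry no detection call, so how far a member lay above background is unknown. The cause was not tested; settings that leave out arrays have fewer samples.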
